A study of Mus musculus with 6 samples.

Results

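The T cell receptor complex and its co-receptors were examined in cells taken from tumours as positive for the macrophage surface marker encoded by Adgre1. The examination used 9 genes: the co-receptor genes Cd4 and Cd8a, the CD3 chain genes Cd3d, Cd3e and Cd3g, the co-stimulatory receptor gene Cd28, the kinase genes Lck and Zap70 and the adaptor gene Lat. The genes were chosen by function, with earlier results for some of them known, and each was represented by the probe set selected on its mean over the 6 arrays, the highest where a gene has several. Each measured gene had a single probe set, so that step decided nothing here. Of the 9 genes 8 had a probe set paired with that symbol alone among 19938 tested genes. Lck was not analysed here.

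The product of Adgre1 is a surface protein used to mark mouse macrophages, and St2 encodes the receptor for IL-33. The labels describe cells positive for that marker from tumours grown in St2-/- mice (3 samples) and in wild type mice (3 samples), each on its own Affymetrix Gene 1.0 ST array. They give no tumour line, strain, age, sex, treatment or time, and leave unstated if each sample is a different animal or pool. The p-values therefore rest on a spread between samples that could be technical. The implanted tumour cells are not stated to lack St2: the genotype is that of the host mouse, deficient in all its cells.

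On T cells the receptor for antigen has no signalling tail of its own and relies on the CD3 chains, whose tails carry tyrosine motifs called ITAMs. CD4 and CD8 bind MHC class II and class I and bring the kinase LCK to the receptor. LCK phosphorylates the ITAMs, ZAP-70 docks there and phosphorylates the adaptor LAT, and CD28 adds a co-stimulatory signal when it meets its ligands on an antigen-presenting cell. Macrophages use the same ITAM logic with other parts, chiefly TYROBP, the Fc receptor gamma chain and SYK. In the mouse, CD4 is also known from subsets of dendritic cells.

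The 3 CD3 genes lie side by side on chromosome 9, and their start regions are shown because the 3 genes behaved differently on the arrays. Each sequence runs from 250 bases before to 50 bases after the RefSeq start (build GRCm38.p6). Cd3g is read from chr9:44980382-44980681 on the minus strand, Cd3e from chr9:45009562-45009861 on the minus strand and Cd3d from chr9:44981536-44981835 on the plus strand. The starts of Cd3g and Cd3d lie 1355 bases apart and point away from each other. Capitals mark E-boxes, the CANNTG motif bound by E proteins, which are known regulators of T cell genes.
Cd3g: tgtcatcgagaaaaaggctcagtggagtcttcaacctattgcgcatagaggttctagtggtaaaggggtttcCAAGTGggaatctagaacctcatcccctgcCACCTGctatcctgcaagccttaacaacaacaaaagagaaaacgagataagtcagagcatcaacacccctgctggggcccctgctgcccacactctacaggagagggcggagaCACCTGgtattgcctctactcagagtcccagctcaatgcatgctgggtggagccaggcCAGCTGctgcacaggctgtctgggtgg
Cd3e: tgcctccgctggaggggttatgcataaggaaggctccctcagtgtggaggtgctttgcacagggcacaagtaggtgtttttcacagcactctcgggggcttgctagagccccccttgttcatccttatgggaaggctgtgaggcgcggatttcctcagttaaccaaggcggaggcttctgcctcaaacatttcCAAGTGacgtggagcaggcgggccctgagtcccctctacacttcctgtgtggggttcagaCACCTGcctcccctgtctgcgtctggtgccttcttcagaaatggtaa
Cd3d: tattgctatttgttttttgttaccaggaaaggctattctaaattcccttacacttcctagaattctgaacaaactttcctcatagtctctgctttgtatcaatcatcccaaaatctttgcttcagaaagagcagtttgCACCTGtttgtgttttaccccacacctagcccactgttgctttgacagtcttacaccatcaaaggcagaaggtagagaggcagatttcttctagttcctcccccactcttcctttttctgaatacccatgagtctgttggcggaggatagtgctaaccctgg

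The Cd3g window held 4 E-boxes, the Cd3e window 2 and the Cd3d window 1, searched on both strands. An E-box occurs in 72.3% of the 32807 windows of 300 bases in the RefSeq promoter table, so its presence does not set these genes apart. The interferon-type STAT motif TTCNNNGAA was found in the Cd3d window and in neither of the other two, against 8.29% of all windows. An ETS motif (GAGGAAG), a RUNX motif (TGTGGT) and a TATA box (TATAAA) were searched on both strands as well and were not found in the windows shown. These exact strings occur in 13.6%, 16.8% and 13.6% of all windows, and other forms of the motifs were not searched. A letter match is a description of the sequence and not a binding site.

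The members did not move together in St2-/- cells. Cd4 rose most, Cd3g and Cd3e rose by under 1 on the log2 scale, Cd8a rose slightly, Cd28 fell, and Cd3d, Zap70 and Lat were not called. Genes were called at a limma adjusted p under 0.05 over all genes. The members were chosen with such results known, so these p-values describe them and are no independent support. Of the 8 measured members 4 were called higher and 1 lower, where 10.7% of all tested genes were called higher and 10% lower (1998 genes). Of all calls 51.7% were higher, and 74.0% when each array was centred on its median. The groups did not overlap for 5 of the 8 members, against 36.4% of all genes. With 8 genes these shares carry little weight, and the values of each gene follow.

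Cd4, the co-receptor for MHC class II (probe set 10547894, chromosome 6), had RMA values of 8.10, 7.98 and 8.21 on the log2 scale in the 3 St2-/- arrays, against 6.05, 5.80 and 5.87 in the 3 wild type arrays. Every St2-/- array lay far above every wild type array, and the spread inside either group was small beside the gap. The means were 8.10 ± 0.12 in St2-/- and 5.91 ± 0.13 in wild type (SD, n = 3 each), a log2 difference of 2.19 with a 95% interval of 1.99 to 2.39, or a 4.56-fold higher level (adjusted p = 2.52e-07). Only 15 of the tested genes showed a larger rise. In a sorted bulk sample, more cells that carry a transcript and more of it per cell cannot be told apart, and this holds for all genes below.

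Cd8a, the alpha chain of the co-receptor for MHC class I (probe set 10538993, chromosome 6), had values of 5.58, 5.68 and 5.85 in St2-/- arrays, against 5.48, 5.38 and 5.36 in wild type arrays. The groups did not overlap, but the gap between the nearest arrays of the 2 groups was small. The log2 difference was 0.30 with a 95% interval of 0.11 to 0.48, a 1.23-fold higher level (adjusted p = 0.0291). This call was lost without St2-/- replicate 2 (adjusted p = 0.0667) or 3 (0.107) and without wild type replicate 2 (0.0722) or 3 (0.0809), and with the replicate number as a block (0.0586). Cd8b1, the beta chain of the same receptor and the next tested gene on the chromosome, is the closest comparison for it. Cd8b1 had values of 5.42, 5.25 and 5.22 in St2-/- arrays and 4.89, 4.73 and 4.95 in wild type arrays, a log2 difference of 0.44 ± 0.08 (SE; adjusted p = 0.00454).

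Among the CD3 chains, Cd3g and Cd3e rose and Cd3d was not called. Cd3g, the gamma chain (probe set 10593015), had values of 5.65, 5.72 and 5.53 in St2-/- arrays, against 4.87, 4.40 and 4.82 in wild type arrays. The wild type arrays were more scattered than the St2-/- arrays and all lay below them. The log2 difference was 0.94 with a 95% interval of 0.67 to 1.20, a 1.91-fold higher level (adjusted p = 0.000407). Cd3e, the epsilon chain that pairs with either the gamma or the delta chain (probe set 10593024), had values of 6.64, 6.64 and 6.39 in St2-/- arrays, against 6.04, 5.75 and 5.72 in wild type arrays. Its lowest St2-/- array still lay above its highest wild type array. The log2 difference was 0.72 with a 95% interval of 0.49 to 0.95, a 1.65-fold higher level (adjusted p = 0.000921).

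Cd3d, the delta chain (probe set 10584821), had values of 4.19, 4.12 and 4.07 in St2-/- arrays, against 3.91, 4.12 and 4.29 in wild type arrays. The groups overlapped fully, with the wild type arrays on both sides of the St2-/- arrays. The log2 difference was 0.02 with a 95% interval of -0.19 to 0.23 (adjusted p = 0.912), an interval that lies below those of Cd3g and Cd3e. Cd3d and Cd3g were 2 of the 4 members whose mean over the arrays lay below 5.26, the level under which the dimmest 40% of tested genes lie. Cd8b1, which is not a member, also lay below that level, with a mean of 5.08. RMA values come with no detection call, so whether such probe sets stood above background was not tested. Cd247, the zeta chain, which carries most of the ITAMs of the complex, had values of 5.73, 5.91 and 5.81 in St2-/- arrays and 5.74, 5.66 and 5.98 in wild type arrays. Its groups overlapped (log2 difference 0.02 ± 0.09, SE; adjusted p = 0.892).

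Cd28 went the other way. This co-stimulatory receptor (probe set 10346783, chromosome 1) had values of 4.85, 4.85 and 5.05 in St2-/- arrays, against 5.45, 5.74 and 5.69 in wild type arrays. All St2-/- arrays lay below all wild type arrays. Its mean over the arrays, 5.27, lay just above the dim level of 5.26, and its St2-/- mean, 4.92, lay below that level. The log2 difference was -0.71 with a 95% interval of -0.92 to -0.50, a 1.64-fold lower level in St2-/- (adjusted p = 0.000503).

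The 2 measured members downstream of the receptor were not called. Zap70, the kinase that docks on phosphorylated CD3 chains (probe set 10345509), had values of 4.59, 4.41 and 4.64 in St2-/- arrays and 4.69, 4.47 and 4.85 in wild type arrays, with overlapping groups. Its log2 difference was -0.12 with a 95% interval of -0.35 to 0.11 (adjusted p = 0.453). Lat, the adaptor that ZAP-70 phosphorylates (probe set 10567825), had values of 5.0, 4.96 and 5.07 in St2-/- arrays and 5.07, 4.98 and 5.02 in wild type arrays, the tightest of the members. Its log2 difference was -0.01 with a 95% interval of -0.16 to 0.13 (adjusted p = 0.913). Both lie with Cd3d and Cd3g below the level of 5.26.

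**Figure D1:**
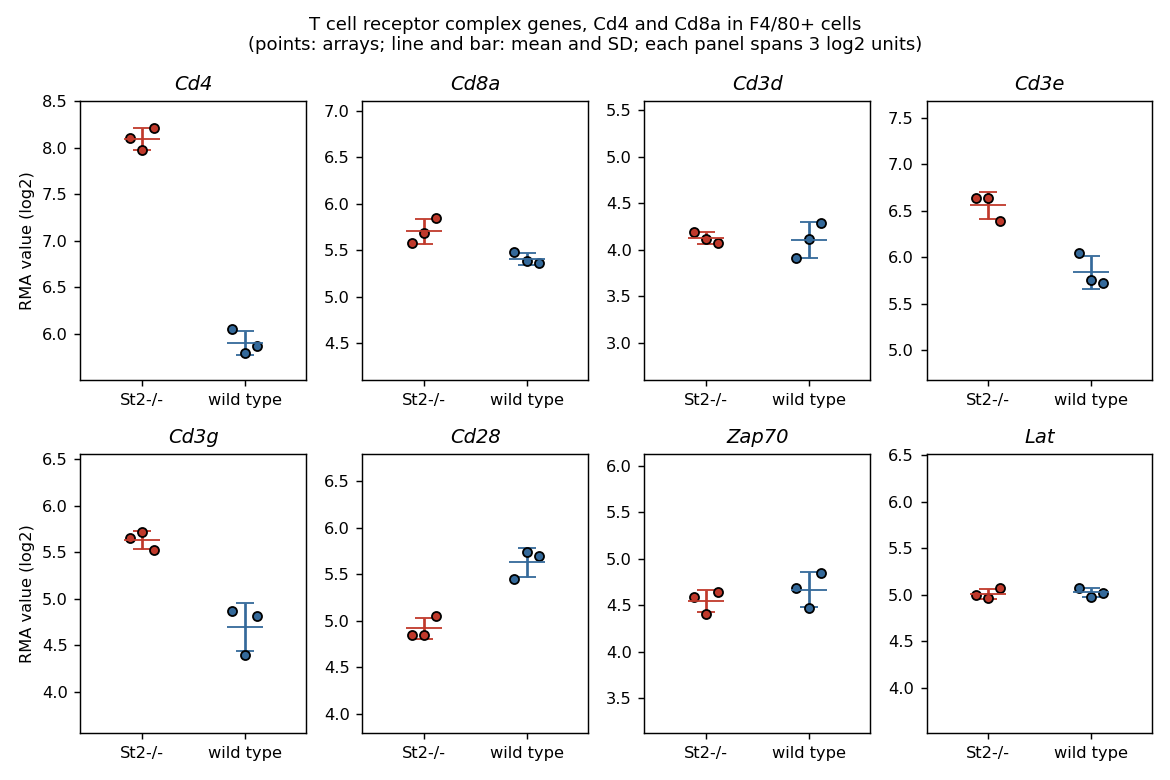
RMA values (log2, vertical axis, 3 units in every panel) of the 8 measured genes in the 3 St2-/- arrays (red, left) and the 3 wild type arrays (blue, right). Points are arrays, and the line and bar are the mean and SD. Cd4 separates by 2.19, Cd3g and Cd3e by under 1, Cd28 separates downwards, and the groups overlap for Cd3d, Zap70 and Lat.

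Whether Cd4 moved with the rest was described by the differences alone, because the levels of different probe sets cannot be set against each other. The other 7 measured members had log2 differences from -0.71 to 0.94 with a median of 0.02, against a median of -0.02 over all tested genes. The difference of Cd4 exceeded the median of the other members by 2.17. Of those 7 members Cd3d, Cd3g, Zap70 and Lat lay below the level of 5.26, and without dim genes the excess was 1.89. Whether such probe sets stood above background was not tested. The 95% interval of Cd4 starts at 1.99 and that of Cd3g, the next in order, ends at 1.20. In the order of the differences, the intervals of Cd3g and Cd3e overlapped, and so did those of Cd3d, Lat and Zap70. The interval of Cd8a overlapped those of Cd3d and Lat. No test was made of Cd4 against the others, since the question was put with these values known.

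**Figure D2:**
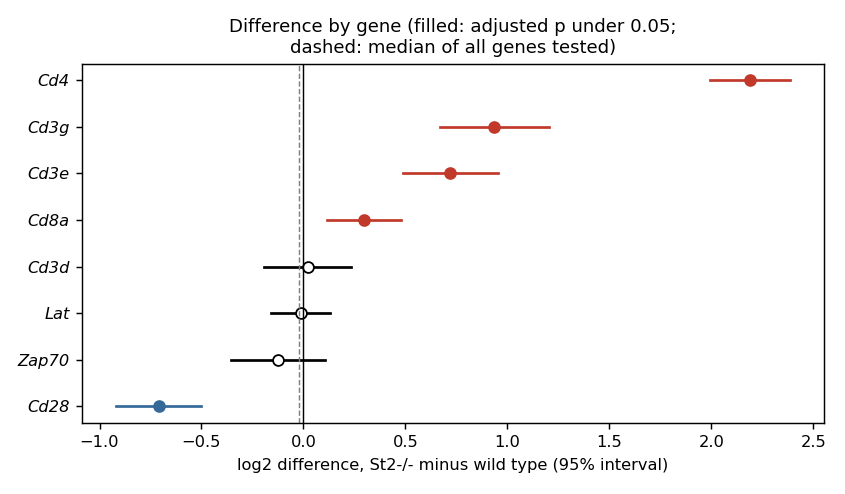
Log2 difference (St2-/- minus wild type, horizontal axis) of the 8 genes with 95% intervals. Filled points passed an adjusted p of 0.05 and open points did not, and the dashed line is the median of all tested genes (-0.02). The interval of Cd4 (1.99 to 2.39) lies apart from all the others.

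The genes whose profiles lay nearest to that of Cd4 included a gene of T cell receptor signalling. Profiles over the 6 arrays were centred on each gene's own mean and compared by Euclidean distance. The nearest was Tespa1, which takes part in receptor signalling during thymocyte selection, at a distance of 0.166. Tespa1 had values of 6.88, 6.80 and 6.86 in St2-/- arrays, against 4.80, 4.67 and 4.63 in wild type arrays, and the groups were far apart (log2 difference 2.15 ± 0.07, SE). The next were Cxcl13, a chemokine that attracts B cells (distance 0.276), Asb2, a subunit of a ubiquitin ligase (0.313), Gpr31b, a G protein-coupled receptor (0.358), and Cxcl11, an interferon-inducible chemokine (0.407). Likeness in this measure rests mainly on the step between 2 groups of 3 arrays and was not tested.

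Genes beside Cd4 on chromosome 6 also differed, some by more than Cd4 itself. Among the 10 tested genes on each side, in the gene order of GRCm38.p6, 7 were called higher, 1 lower and 12 not called, where 10.7% of all tested genes were called higher. Over the whole chromosome 22.0% of 1099 tested genes were called in either direction. The median log2 difference of the 20 neighbours was 0.17, against -0.02 over all tested genes. This neighbour rule was written with the rises of Eno2, Pianp and Cd4 already known, so the count is a description.

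Gpr162, an orphan receptor gene and the tested gene directly beside Cd4, had values of 6.65, 6.35 and 6.25 in St2-/- arrays, against 5.46, 5.55 and 5.32 in wild type arrays. Its groups were clearly apart, with a log2 difference of 0.97 ± 0.11 (SE; adjusted p = 0.000158). Lag3, the neighbour on the other side, encodes a receptor related to CD4 that also binds MHC class II. Lag3 had values of 5.36, 5.49 and 5.52 in St2-/- arrays and 4.98, 5.37 and 5.23 in wild type arrays, which overlap (log2 difference 0.26 ± 0.10, SE; adjusted p = 0.0956).

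Pianp, which encodes a ligand of the inhibitory receptor PILR alpha, is the sixth tested gene beyond Cd4 on the Lag3 side. It had values of 7.80, 8.07 and 8.26 in St2-/- arrays, against 5.83, 5.64 and 5.33 in wild type arrays, a log2 difference of 2.44 ± 0.14 (SE). Eno2, the neuronal form of the glycolytic enzyme enolase, is the ninth tested gene on the Gpr162 side. It had values of 8.50, 8.54 and 8.42 in St2-/- arrays, against 5.28, 5.27 and 5.36 in wild type arrays, a log2 difference of 3.18 ± 0.07 (SE). The tested genes between Eno2 and Pianp other than Cd4 had log2 differences from -0.15 (Lrrc23, not called) to 0.97 (Gpr162), and Gpr162, Mlf2, Tpi1, Cdca3 and Cops7a among them were called higher.

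The other called neighbours of Cd4 moved little. Mlf2 (0.38), the glycolytic gene Tpi1 (0.30), the cell division gene Cdca3 (0.25) and Cops7a, a subunit gene of the COP9 signalosome (0.22), were called higher, and the co-repressor gene Atn1 was called lower (-0.25). The calls of Cdca3, Cops7a and Atn1 were lost under 9, 9 and 7 of the 16 other settings tried. Beside the CD3 cluster on chromosome 9, 2 of 20 neighbours were called higher and 2 lower, with a median of -0.05. Over all tested genes 10.7% were called higher and 10% lower. The called neighbours of the cluster included Il10ra, the IL-10 receptor gene (0.66 ± 0.09, SE), Phldb1 (-0.47) and Ddx6 (0.28). Beside Cd8a, 6 of 20 were called, all of them higher (2 in the plain two-sample test), with a median of 0.03, where 10.7% of all tested genes were called higher, among them Cd8b1, St3gal5 (0.50) and Mrpl35 (0.31).

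**Figure D3:**
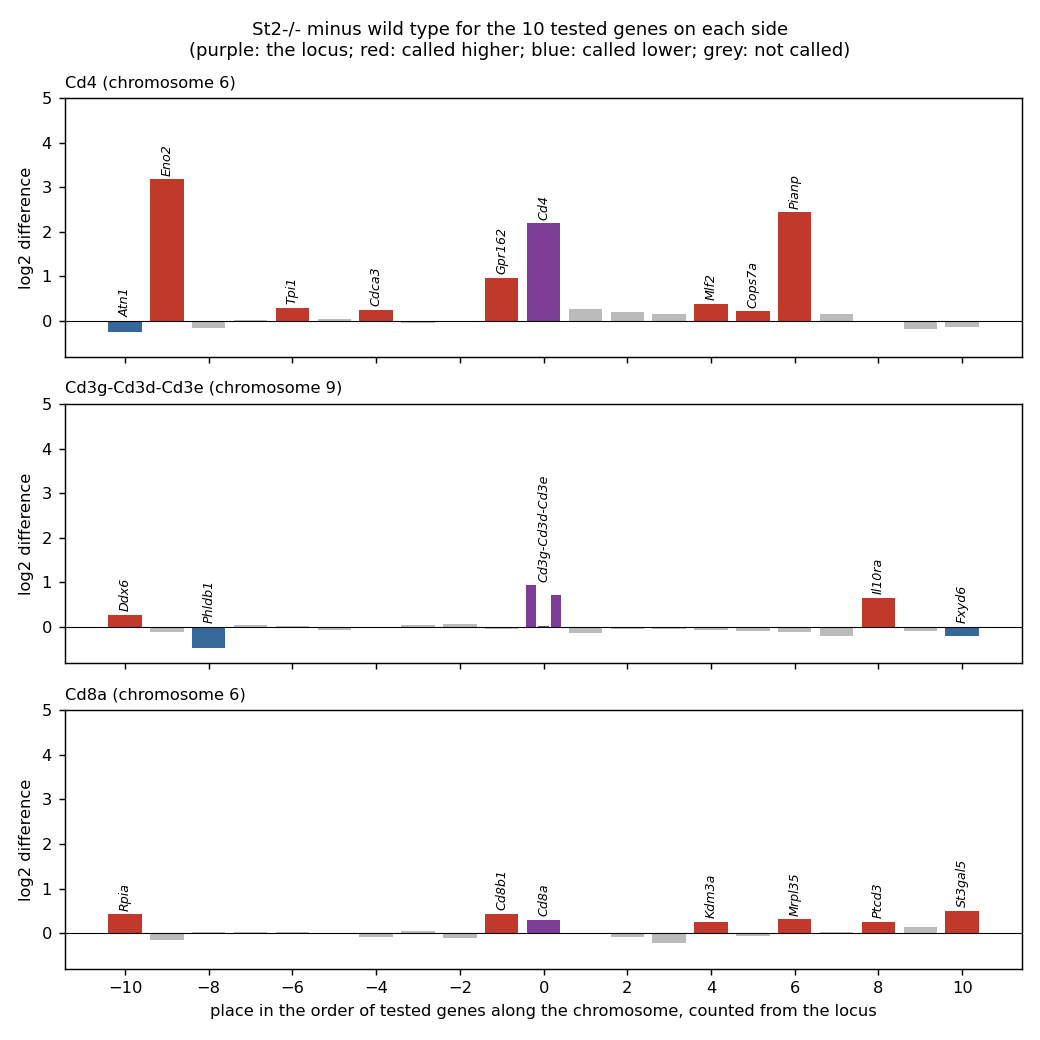
Log2 difference (St2-/- minus wild type, vertical axis) of the 10 tested genes on each side of Cd4, of the Cd3g-Cd3d-Cd3e cluster and of Cd8a, in their order along the chromosome (horizontal axis). Purple bars are the loci, red bars genes called higher, blue bars genes called lower and grey bars genes not called. Eno2 (3.18) and Pianp (2.44) stand above Cd4 (2.19), the bars between them run from -0.15 to 0.97 (Gpr162), and no neighbour of the other 2 loci reaches 1.

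Other genes of T cell receptor biology were read in lists by role. The lists hold genes that macrophages also use, such as Ptprc, Vav1 and Cd44. For every list count below, the shares over all tested genes were 10.7% called higher and 10% called lower. Of 25 measured T cell surface and co-stimulation genes besides the members, 7 were called higher, 2 lower and 16 in neither direction. Their median log2 difference was 0.15, against -0.02 over all genes. Il2ra, the IL-2 receptor alpha chain, had the largest difference (3.56 ± 0.07, SE). Il2ra had values of 8.86, 8.86 and 8.67 in St2-/- arrays, against 5.21, 5.19 and 5.30 in wild type arrays. Cd69, an early activation antigen of many leukocytes (1.61), Il7r, the IL-7 receptor chain (1.50), Il2rb, the IL-2 receptor beta chain (0.76), and the chemokine receptor gene Cxcr3 (0.72) were also called higher. Cd40lg, the CD40 ligand gene of helper T cells, and Icos were named after their values were seen. Their log2 differences were 0.02 ± 0.07 and 0.08 ± 0.10 (SE). Both lay below the dim level, with means over the arrays of 3.36 and 4.80, as did 14 of the 25 genes. Whether such probe sets stood above background was not tested. Of the 25 genes 22 had a positive difference. Among those not called were Tnfrsf4 (0.34), Ctla4 (0.33), Pdcd1 (0.28) and Lag3 (0.26), also named after their values were seen.

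Of 25 measured genes that carry or restrain the signal from the receptor, 11 were called higher, 3 lower and 11 not called, with a median of 0.16. Without St2-/- replicate 1 or 2 the 11 became 7, and without St2-/- replicate 3 the 3 became 1. Grap2, the GADS adaptor that joins LAT to SLP-76, had values of 9.82, 9.76 and 9.82 in St2-/- arrays, against 8.18, 8.24 and 8.15 in wild type arrays. Its groups lay wide apart, with a log2 difference of 1.61 ± 0.06 (SE). Ptpn22, a phosphatase that restrains receptor-proximal kinases, rose by 1.28, Ptprc, which encodes CD45, by 0.63, and Malt1, a protease of the NF-kB branch, by 0.60. The 3 called lower were Plcg1 (-0.35), Cblb (-0.30) and Nfatc2 (-0.20), named after their values were seen. Of 13 measured ITAM signalling genes of myeloid cells 8 were called higher, 1 lower and 4 not called, with a median of 0.27. Blnk (0.56), Fyb (0.42) and Plcg2 (0.39), which act downstream of SYK or in integrin activation, and the kinase gene Btk (0.33) had the smallest p in this list, and Syk itself, named after its value was seen, rose by 0.36. Of 10 genes listed with the receptor chains besides the members, only 3 were measured, Cd247, Ptcra (-0.05) and Trat1 (0.02). Of these, 0 were called by limma, 0 at an unadjusted p under 0.05 and 0 by the plain two-sample test. Trac, Trbc1, Trbc2, Trdc, Trgc1, Trgc2 and Trgc4 were not measured, so the chains they encode were not tested.

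Of 18 measured transcription factor genes of the Cd4 and Cd8 lineages 3 were called higher, 2 lower and 13 not called, with a median of 0.02, where 10.7% of all tested genes were called higher and 10% lower. Runx3, known to silence Cd4 in CD8 T cells, had values of 8.78, 8.90 and 8.92 in St2-/- arrays, against 8.42, 8.53 and 8.25 in wild type arrays (log2 difference 0.47 ± 0.08, SE). Zbtb7b, which encodes ThPOK, the factor that commits thymocytes to the CD4 lineage, had values of 8.63, 8.65 and 8.71 in St2-/- arrays, against 8.34, 8.39 and 8.25 in wild type arrays (0.34 ± 0.07, SE). Both were higher in every St2-/- array than in any wild type array. Ets1 (0.26) was also called higher, a call lost without any single St2-/- array or without wild type replicate 3. The 2 called lower were Myb (-0.40) and Gata3 (-0.27, limma adjusted p = 0.0308), the latter named after its value was seen. The groups of Gata3 did not overlap, and its mean over the arrays, 4.96, lay below the dim level. In the plain two-sample test 0 of this list were called lower. Foxp3, the factor of regulatory T cells, also named after its value was seen, had a log2 difference of -0.02 ± 0.10 (SE).

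Markers of cell types that could carry these transcripts were read as whole lists beside the members. The marker counts in this and later paragraphs compare with 10.7% of all tested genes called higher and 10% called lower. Of 17 measured T cell markers, 7 of them members, 4 were called higher, 1 lower and 12 not called, with a median of 0.03. The mean of the list per array ran from 5.01 to 5.04 in St2-/- and from 4.85 to 4.98 in wild type. Outside the members Cd5 alone was called, with values of 6.07, 5.95 and 6.03 in St2-/- arrays, against 5.61, 5.62 and 5.60 in wild type arrays (0.41 ± 0.06, SE). In this list 11 of the 17 genes lay below the level of 5.26, among them Themis, Trat1, Lef1 and Ubash3a.

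Most markers of cross-presenting dendritic cells were higher in St2-/- arrays. Of 8 measured, 6 were called higher, and Batf3 (-0.09) and Itgae (-0.03) were not called, with a median of 0.65, and the list mean ran from 7.76 to 7.81 in St2-/- arrays and from 6.74 to 6.82 in wild type arrays. Xcr1 (3.37), Clec9a (1.88), Cadm1 (1.21) and Irf8 (0.72) led it. The 12 markers of Cd4-bearing and Cd11b-type dendritic cells had 1 called higher, 5 lower and 6 not called, with a median of -0.17. The 5 lower calls became 2 without St2-/- replicate 2, 3 without St2-/- replicate 1 or 3 or wild type replicate 1 or 3, 1 with all rows of the table and 0 in the plain two-sample test. Itgax, the CD11c gene, rose (1.80 ± 0.08, SE), while Esam, a marker of the CD4+ splenic subset, fell (-0.36), as did Kit (-0.38) and Clec10a (-0.70). Of the 12 genes 6 lay below the dim level, among them Kit, Clec10a, Irf4 and Cd209a. Of the 5 called lower, only Esam lay above it. Whether such probe sets stood above background was not tested. The call of Esam was lost without St2-/- replicate 3, that of Kit without St2-/- replicate 2, and that of Clec10a without St2-/- replicate 2 or wild type replicate 3. The list mean ran from 6.18 to 6.27 in St2-/- arrays and from 6.20 to 6.32 in wild type arrays. The part of these cells in the Cd4 result was not tested.

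Of 14 NK cell markers 6 were called higher and 8 were not called (median 0.11), with list means of 4.36 to 4.41 in St2-/- arrays and 3.89 to 3.93 in wild type arrays. The 6 included Klrk1, the NKG2D receptor (3.38), Nkg7 (1.45), Il2rb (0.76) and the perforin gene Prf1 (0.35). The 8 that were not called had log2 differences from -0.12 (Gzma) to 0.13 (Eomes). Of the 14 genes 12 lay below the level of 5.26. Of 9 B cell markers 2 were higher, 1 lower and the rest not called (median -0.02; list means 4.50 to 4.60 in St2-/- and 4.51 to 4.57 in wild type arrays), with Cd79b (0.80) and Ms4a1 (0.48) higher and Ebf1 (-0.74) lower. All but Cd79b, 8 of the 9, lay below the level of 5.26. Of 9 plasmacytoid dendritic cell markers 1 was higher, the interferon-inducible gene Bst2 (0.52), and 8 were not called (median -0.05; list means 6.65 to 6.71 in St2-/- and 6.64 to 6.68 in wild type arrays). Their defining gene Siglech had a log2 difference of 0.00 ± 0.07 (SE) and was among the 5 of these 9 genes below the level of 5.26. Of 7 innate lymphoid markers 1 was higher (Il7r), 2 were lower (Kit and Tnfrsf11a) and 4 were not called (median 0.01; list means 6.20 to 6.26 in St2-/- and 6.01 to 6.10 in wild type arrays). The call of Tnfrsf11a (-0.20) was lost when any 1 array was left out.

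Macrophage markers were bright in both genotypes. The mean of 13 measured macrophage markers ran from 11.26 to 11.31 in St2-/- arrays and from 11.35 to 11.40 in wild type arrays, and 0 of them lay below the level of 5.26. Of the 13, 3 were called higher, 4 lower and 6 not called, with a median of 0.05. Adgre1, the gene of the marker used for the sort, averaged 11.63 ± 0.04 in St2-/- and 11.32 ± 0.04 in wild type (SD, n = 3 each). Msr1 (-0.76), Mertk (-0.72) and Lyz2 (-0.71) were lower and Aif1 (0.59) was higher. The values do not tell which of the sorted cells carried Cd4 or the CD3 transcripts.

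**Figure D4:**
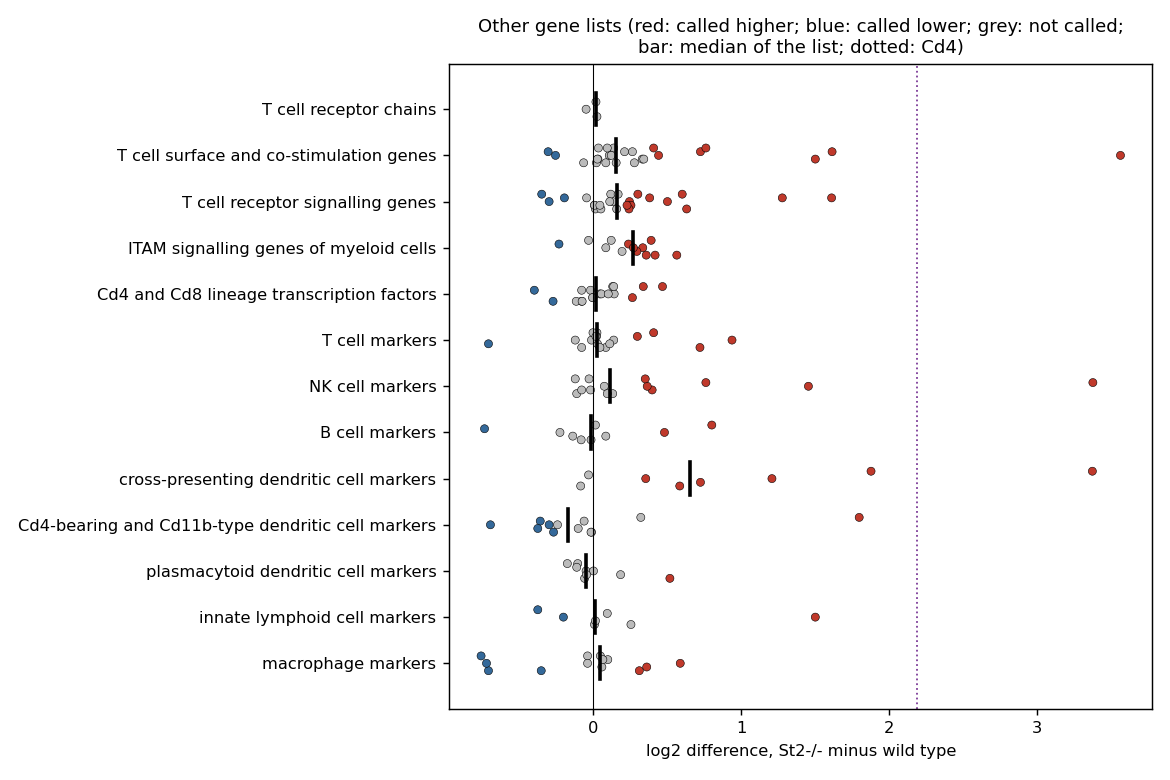
Log2 difference (St2-/- minus wild type, horizontal axis) of each measured gene in the 13 lists, with red points called higher, blue points called lower and grey points not called. Black bars are list medians and the dotted line is Cd4 (2.19). Only Il2ra, Klrk1 and Xcr1 lie beyond Cd4, and the bar of cross-presenting dendritic cell markers (0.65) is the farthest from 0.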

How the data were processed

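Each sample's RNA was hybridised to its own Affymetrix Gene 1.0 ST array, as the labels' protocols give it. The deposited log2 values were made by the authors with RMA (background correction, quantile normalization, median polish), per the submitters' processing notes. The version, annotation and log base were not given in the sources used here, and log2 is the scale RMA returns. Quantile normalization hides shifts shared by most genes. Of 35556 probe sets, 21789 had 1 symbol in the platform annotation, 1621 several and 12146 none, and 1 probe set a gene left 19938 genes.

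The genotypes were compared with limma 3.58.1 under R 4.3.3 (lmFit, eBayes, two-sided, Benjamini-Hochberg over all genes). The fit was tested on simulated data with independent noise and fewer changed genes than were called here, which cannot vouch for single calls. The other settings are in the closing section. The members, lists and rules were chosen with earlier results of these data known. Named genes are the members, the 5 nearest to Cd4, called neighbours of Cd4, and up to 4 genes of smallest p per list, unless said otherwise. Arrays of the same genotype correlated over genes at 0.996 to 0.998 (Pearson), and arrays of different genotypes at 0.986 to 0.988. Promoter sequences are from RefSeq (GRCm38.p6), which held 7 of the 9 members. That assembly served otherwise for names and gene order only, with 19853 genes placed. The St2 gene itself (Il1rl1) was not analysed here, so genotypes were not checked against it.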

Additional observations from a re-analysis of the deposited data

How the results depend on the processing

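Settings tried were centring arrays on their median, cyclic loess, an intensity trend or a robust prior, weights for arrays, testing every row of the table, averaging a gene's probe sets, dropping the dimmest 40%, a replicate block, dropping each array in turn and a plain two-sample test. Cd4, Cd3g, Cd3e and Cd28 kept their direction and call in every setting that tested them (Cd3g is among the genes left out as dim). The difference of Cd4 lay between 2.13 and 2.28, and Cd3d, Zap70 and Lat were called in none. Cd8a lost its call in 7 of 16 settings, leaving 3 members higher: besides the replicate block and 4 of the arrays left out, with all rows of the table (adjusted p = 0.0736) and in the plain test (0.118). The excess of Cd4 over the median of the others was 1.89 without dim genes, since Cd3d, Cd3g, Zap70 and Lat then drop out. Genes called over the whole table fell to 2703 in the plain test, against 4140, and lay between 2887 and 3852 without any 1 array. After cyclic loess 46.8% of calls were higher. With the replicate block 3571 genes were called, and Cd8a was the only member whose call changed. Same-numbered arrays did not deviate together over all genes (r = 0.01, -0.01 and -0.05). The labels leave unstated if the numbers pair the samples, and correlations over all genes cannot settle it. In the plain test adjusted p-values also passed 0.05 for Cd8b1, Runx3, Mlf2, St3gal5, Phldb1, Ets1, Ms4a1, Atn1, Esam, Myb, Kit, Cdca3 and Clec10a, from 0.0508 (Phldb1) to 0.183 (Clec10a). Ddx6 lost its call after cyclic loess. The 7 of 25 surface genes called higher became 12 at most and 6 at least (5 of 11 without dim genes), the 6 neighbours of Cd8a 7 at most and 2 at least, and the 7 neighbours of Cd4 10 at most and 5 at least. With 3 arrays a group, differences inside the intervals given cannot be resolved.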
